A study of Homo sapiens with 22 samples.

Results

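The mitochondrial genome encodes 7 subunits of respiratory complex I, and the mRNAs of all 7 were followed here across 22 RNA-seq libraries of LUHMES cells. MT-ND1, MT-ND2, MT-ND3, MT-ND4, MT-ND4L, MT-ND5 and MT-ND6 were taken from a table of 34679 genes by gene symbol. All 7 had a single row and passed the filter on low counts, which left 16601 genes for testing. They were set beside the other 6 of the 13 mitochondrial mRNAs, which encode subunits of complexes III, IV and V.

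Complex I, the NADH:ubiquinone oxidoreductase, passes electrons to ubiquinone and pumps protons across the inner mitochondrial membrane, and its loss is a long-studied feature of Parkinson disease. The mitochondrially encoded subunits build the core of its membrane arm, while nuclear genes encode the arm that oxidises NADH, the accessory subunits and the assembly factors. The mitochondrial mRNAs are cut from long transcripts of either strand of the circular genome, and those of the heavy strand are then polyadenylated. MT-ND6 is the only mRNA of the light strand.

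LUHMES is a conditionally immortalised human mesencephalic line that becomes post-mitotic and neuron-like on differentiation. Differentiated cells overexpressing alpha-synuclein (aSyn), the main protein of Lewy bodies, were compared with wild-type (WT) cells, and each genotype was profiled with 6-OHDA, a dopamine analogue that generates oxidative stress, and untreated. The series' design names these cells as culture models of Parkinson disease and quercetin and rutin as candidate protective agents. The 6 groups were aSyn cells with 6-OHDA and quercetin (n = 3), aSyn cells with 6-OHDA and rutin (n = 3), aSyn cells with 6-OHDA alone (n = 4), WT cells with 6-OHDA (n = 4), untreated aSyn cells (n = 4) and untreated WT cells (n = 4). Doses, exposure times, the overexpression construct and clonality are not given in the sources used. The labels do not say whether the libraries of a group are separate cultures, and p-values measure no more than the spread between them, which may be technical.

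The libraries held 1.87 to 20.67 M estimated counts, and 3 of the 4 WT 6-OHDA libraries held 3.12 M or fewer. Levels are given as CPM (counts relative to the TMM-scaled library size). On the first principal component of all tested genes (40.8% of the variance), aSyn 6-OHDA replicate 4 scored -1.47, the other 13 libraries with 6-OHDA scored 35.8 to 45.3 and the untreated libraries -76.4 to -53.5. Counts of members and list genes called that use this library are also given without it. By library name, the 10 libraries of aSyn cells with 6-OHDA ran on lane 2 and the other 12 on lane 1. All 7 neuronal markers were detected, with a summed level of 3716 to 4083 CPM in WT 6-OHDA and 8966 to 9956 CPM in untreated WT libraries, and of 3913 to 5476 CPM in aSyn 6-OHDA and 7508 to 9445 CPM in untreated aSyn libraries. TH was present in every library, while LMX1A and PITX3, midbrain dopaminergic transcription factors, had no count in 20 of 22. The 4 astrocyte markers summed to 10.2 to 25.7 CPM and the 3 blood and microglia markers to 2.12 to 9.7 CPM over all libraries.

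The members lie on chromosome M of GRCh38, and all are single exons. In GENCODE 29, MT-ND1 (ENSG00000198888.2) spans bases 3307 to 4262, MT-ND2 (ENSG00000198763.3) 4470 to 5511, MT-ND3 (ENSG00000198840.2) 10059 to 10404 and MT-ND4L (ENSG00000212907.2) 10470 to 10766. MT-ND4 (ENSG00000198886.2) spans 10760 to 12137 and MT-ND5 (ENSG00000198786.2) 12337 to 14148, all on the plus strand, and MT-ND6 (ENSG00000198695.2) spans 14149 to 14673 on the minus strand. MT-ND4L and MT-ND4 are carried on 1 mRNA and their reading frames overlap. The 7 shared bases, 10760 to 10766, are in capitals in the following stretches of the plus strand, chrM:10737-10766 for the end of MT-ND4L and chrM:10760-10789 for the start of MT-ND4.
MT-ND4L: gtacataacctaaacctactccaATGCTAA
MT-ND4: ATGCTAAaactaatcgtcccaacaattata

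No window of 31 bases was shared between any pair of members, and a read across the overlap could be counted for either gene. Copies of the mitochondrial genes in nuclear DNA were a larger source of shared sequence. Of the 31-base windows of MT-ND2, 56.9% occurred in annotated nuclear copies, against 30.7% for MT-ND6, 28% for MT-ND1, 21.2% for MT-ND4, 16.1% for MT-ND4L, 15.1% for MT-ND5 and 3.48% for MT-ND3. The most counted copy of MT-ND2 was MTND2P28 on chromosome 1 (629640 to 630683, plus strand), 98.4% identical over 1042 aligned bases with 17 mismatches. The following 50 bases, chrM:4891-4940 and chr1:630061-630110, were chosen as a stretch with the most differences, with the 3 that differ in capitals.
MT-ND2: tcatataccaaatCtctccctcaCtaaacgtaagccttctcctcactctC
MTND2P28: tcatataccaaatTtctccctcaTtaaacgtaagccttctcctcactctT

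The authors' counting gave MTND2P28 1728 counts over all libraries, 3.65% of the 47373 counts of MT-ND2. With every other annotated copy added, nuclear copies held 5.2% of the counts of MT-ND2 and its copies, 1.98% for MT-ND1, 1.92% for MT-ND6, 1.46% for MT-ND5, 1.28% for MT-ND4L, 1.12% for MT-ND3 and 0.556% for MT-ND4. The split of such reads between a member and its copies is an estimate, and MT-ND2 had the highest share of the 7 in its copies over all libraries and in 21 of 22. By library the share was 3.5 to 12.1% for MT-ND2. For MT-ND3 it was 0 to 16.1%, and the highest value, in WT 6-OHDA replicate 4, rests on 5 counts in copies and 26 in MT-ND3. Every member had its highest share in a WT 6-OHDA library. That was replicate 3 for MT-ND4L (6.67%, from 1 count in copies and 14 in MT-ND4L) and replicate 4 for the rest. The use of strand in counting is not given in the sources used, so MT-ND6 counts may include reads of the opposite strand.

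Levels were compared between genes per annotated kilobase (CPM per kb), since the members differ in length. In untreated WT cells MT-ND4 averaged 544 ± 82.7 CPM per kb, MT-ND1 306 ± 43.3, MT-ND5 261 ± 24.4, MT-ND2 237 ± 36.1, MT-ND3 168 ± 23.5, MT-ND6 127 ± 11.6 and MT-ND4L 92.3 ± 20.7 CPM per kb (SD, n = 4). MT-ND4 stood clear of MT-ND1 in these libraries, whereas the ranges of all later neighbours in that order overlapped. Within libraries the order was firmer. MT-ND4 was above every other member and MT-ND1 above the remaining members in 22 of 22 libraries, and MT-ND2 and MT-ND5 were above MT-ND3, MT-ND6 and MT-ND4L in all 22. MT-ND2 was above MT-ND5 in 8 of 22, MT-ND3 above MT-ND6 in 18 of 22 and MT-ND4L above MT-ND6 in 3 of 22. Counts are divided here by annotated length, which is longer than the stretch in which a fragment can start, so the shortest members, MT-ND4L and MT-ND3, are understated on this scale. The libraries are of polyadenylated RNA, and how fully they capture MT-ND6, the light-strand mRNA, was not tested.

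**Figure D1:**
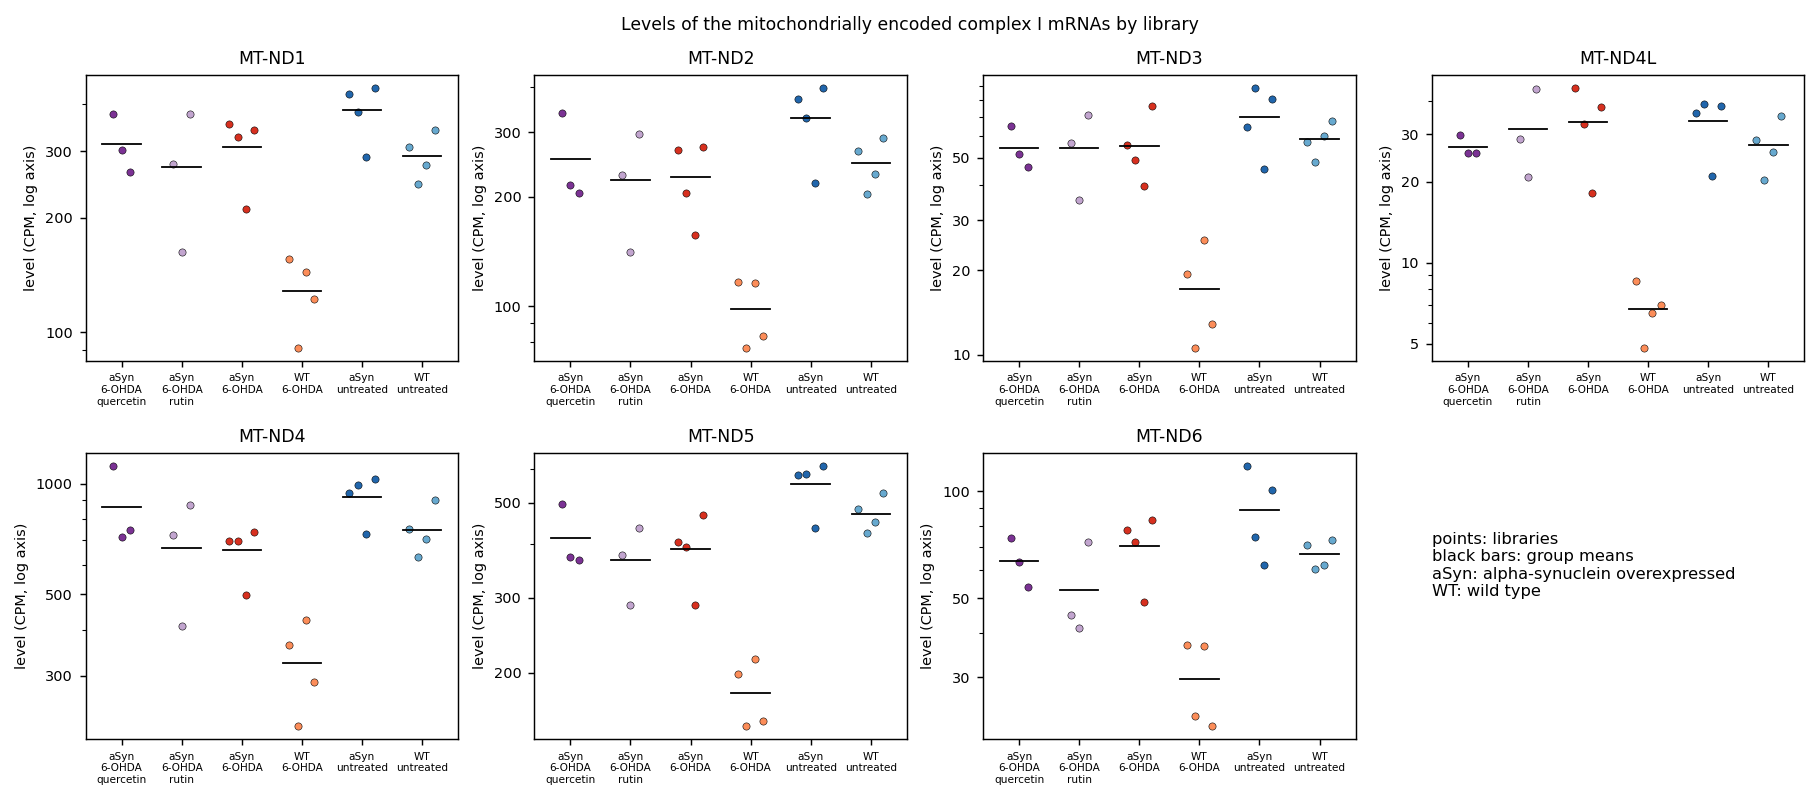
Level of each member in CPM on a log axis (each panel with its own range) in the 22 libraries, by group, with points for libraries and black bars for group means. The 4 WT 6-OHDA libraries lie below every other library in 6 of 7 panels, and in the MT-ND4 panel rutin replicate 2 (409 CPM) lies below the highest of them (426 CPM).

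In WT cells both groups ran on lane 1. All 7 members fell, by 2.18-fold (MT-ND6) to 3.87-fold (MT-ND4L), and for none of them did the 4 WT 6-OHDA libraries overlap the 4 untreated WT libraries. Over all tested genes, 26.2% were called lower and 25.8% higher in this comparison, and 24.3% were lower without overlap. Genes were called at an adjusted p under 0.05 in the quasi-likelihood test of edgeR, adjusted by the Benjamini-Hochberg method over all 16601 genes, which is the source of all adjusted p-values below, and fold changes are log2 values ± SE. In bulk RNA, fewer cells of a type and less RNA per cell cannot be told apart. Cell type markers moved between these groups too. Of the 7 neuronal markers 5, MAP2, DCX, STMN2, SYT1 and NEFM, were lower in WT 6-OHDA than in untreated WT libraries without overlap, and TUBB3 was higher (means of 170 CPM in WT 6-OHDA and 110 CPM in untreated WT libraries). The 8 dopaminergic markers summed to 192 to 206 CPM in WT 6-OHDA and 428 to 482 CPM in untreated WT libraries, where TH and EN1 were lower and NR4A2 higher without overlap. The 3 markers of progenitors and cycling cells summed to 21.4 to 29.3 CPM in WT 6-OHDA and 37.4 to 55.5 CPM in untreated WT libraries, and only MKI67 was lower without overlap. The 4 oligodendrocyte markers summed to 26.3 to 34.4 CPM in WT 6-OHDA and 68.7 to 86.8 CPM in untreated WT libraries, with MBP and OLIG1 lower without overlap. Sums that were higher in WT 6-OHDA libraries were those of the astrocyte markers (15.9 to 24.2 CPM in WT 6-OHDA and 10.2 to 13.8 CPM in untreated WT), of the 5 fibroblast and epithelial markers (29.3 to 33.3 CPM in WT 6-OHDA and 16.6 to 20.6 CPM in untreated WT) and of the blood and microglia markers (4.97 to 7.44 CPM in WT 6-OHDA and 2.12 to 2.74 CPM in untreated WT). The part of these markers in the fall was not tested.

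Among the subunits that are related to antiporters and carry the proton channels, MT-ND4 had 363, 219, 426 and 289 CPM in WT 6-OHDA replicates 1 to 4, against 754, 633, 707 and 903 CPM in untreated WT replicates 1 to 4. MT-ND5, at the tip of the membrane arm, had 199, 150, 215 and 154 CPM in WT 6-OHDA libraries, against 485, 426, 450 and 528 CPM in untreated WT libraries. MT-ND2 had 116.9, 77.1, 115.8 and 83.1 CPM with 6-OHDA, against 266, 203, 231 and 289 CPM untreated. Every WT 6-OHDA library was thus well under the lowest untreated one for these 3 mRNAs. The log2 changes were -1.21 ± 0.21 for MT-ND4 (adjusted p = 6.66e-05), -1.39 ± 0.16 for MT-ND5 (adjusted p = 2.15e-07) and -1.32 ± 0.24 for MT-ND2 (adjusted p = 8.36e-05).

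MT-ND1, at the ubiquinone site where the membrane arm meets the peripheral arm, had 155.8, 91.0, 143.7 and 122.3 CPM in WT 6-OHDA libraries, against 308, 245, 275 and 340 CPM in untreated WT libraries. Its log2 change was -1.18 ± 0.22 (adjusted p = 1.03e-04). MT-ND6, the light-strand mRNA, had 37.1, 23.3, 36.7 and 21.9 CPM with 6-OHDA, against 70.5, 60.7, 62.2 and 73.1 CPM untreated, a change of -1.12 ± 0.23 (adjusted p = 2.62e-04). Its counts per 100 counts of the 6 heavy-strand members were 4.3, 4.22, 3.94 and 3.27 in WT 6-OHDA libraries, against 3.72, 3.86, 3.56 and 3.38 in untreated WT libraries. The groups overlapped in this ratio.

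The largest falls were those of MT-ND4L and MT-ND3, small subunits next to the ubiquinone site. MT-ND4L had 8.59, 4.84, 6.51 and 6.96 CPM in WT 6-OHDA libraries, against 28.6, 20.2, 25.8 and 35 CPM in untreated WT libraries. MT-ND3 had 19.3, 10.6, 25.6 and 12.9 CPM with 6-OHDA, against 56.7, 48.2, 59.8 and 67.8 CPM untreated. The log2 changes were -1.95 ± 0.30 (adjusted p = 1.22e-05) and -1.76 ± 0.27 (adjusted p = 1.31e-05). Few counts stood behind these values: MT-ND4L had 16, 14 and 14 counts in the 3 shallower WT 6-OHDA libraries, and 14 counts have a 95% Poisson interval of 7.65 to 23.5. In replicate 4 that interval is 3.81 to 11.7 CPM, still under the lowest untreated level, and it covers counting error only.

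MT-ND4L was also lower relative to MT-ND4, with which it shares an mRNA. Per 100 MT-ND4 counts, WT 6-OHDA libraries held 2.36, 2.21, 1.53 and 2.41 counts of MT-ND4L, and untreated WT libraries 3.79, 3.2, 3.65 and 3.88. The groups did not overlap in this ratio, which was not put to a test.

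**Figure D2:**
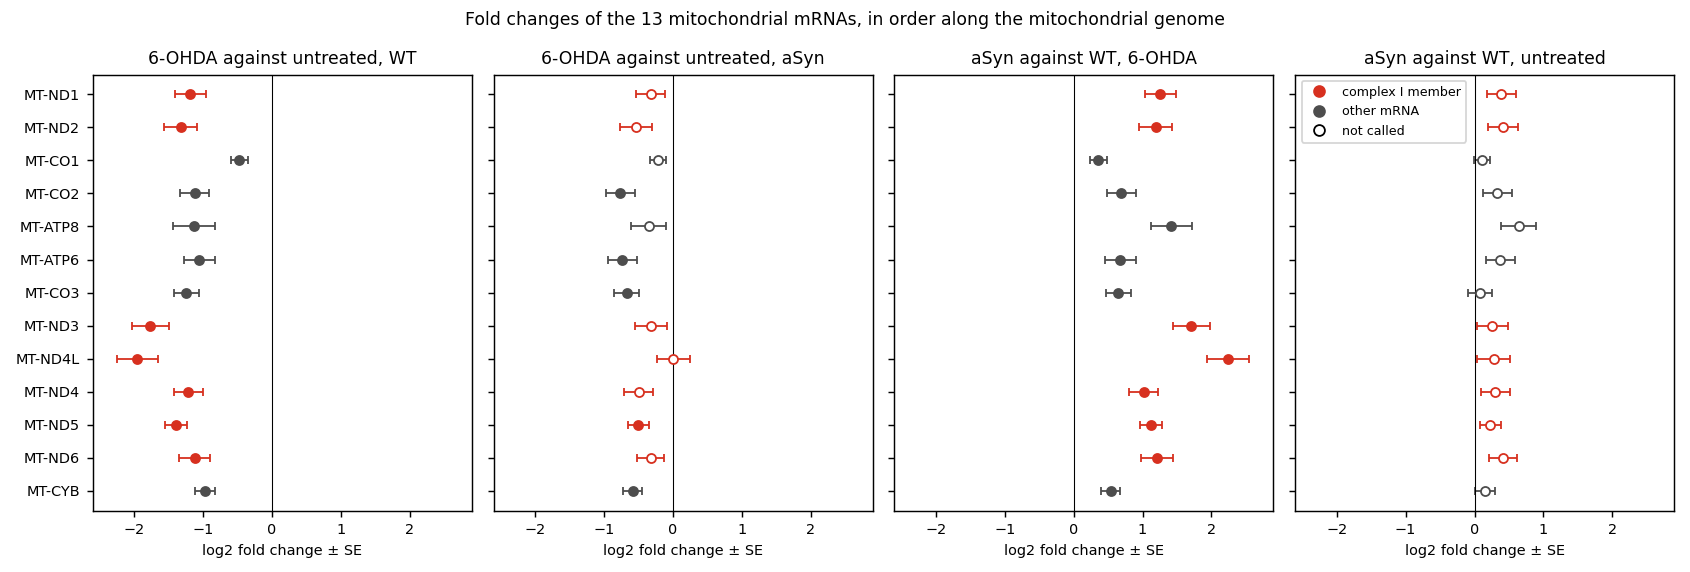
Log2 fold change with its SE (horizontal axis) of the 13 mitochondrial mRNAs, ordered along the genome, in 4 comparisons, with filled points for called genes and open points for genes that were not called. In WT cells all 13 lie below 0 with 6-OHDA and MT-CO1 (-0.47) moves least, whereas in aSyn cells the same change is close to 0 for MT-ND4L (0.01).

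The other 6 mitochondrial mRNAs were also called lower in WT cells. MT-CO1, a catalytic subunit of complex IV and the most abundant of the 13, fell by 0.47 on the log2 scale, and the other 5 had changes between -1.24 (MT-CO3) and -0.97 (MT-CYB). The median change was -1.32 over the members, -1.08 over the other 6 and 0.071 over all tested genes. The members took 12.9, 11.2, 13 and 11.5% of the counts of the 13 mRNAs in WT 6-OHDA libraries, against 17.7, 16, 17.4 and 19.3% in untreated WT libraries. MT-CO1 took 61.7 to 67.1% in WT 6-OHDA libraries and 49.3 to 53.4% in untreated WT libraries. Neither share overlapped between the groups.

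When libraries were scaled to the summed counts of the other 6 mRNAs, all 7 members stayed called lower, with changes of -1.31 to -0.48, where 4.94% of all genes were lower. MT-CO1 supplied more counts than the other 5 in each of these libraries, so a scaling without it was added after the data were seen. With MT-CO1 left out of the sum, only MT-ND3 (-0.67 ± 0.20, adjusted p = 0.00349) and MT-ND4L (-0.86 ± 0.25, adjusted p = 0.00304) were called lower, where 1.65% of all genes were. MT-ND1, MT-ND2, MT-ND4, MT-ND5 and MT-ND6 then had changes of -0.27 to -0.04 and adjusted p of 0.12 to 0.878. Counts of MT-ND3 and MT-ND4L therefore fell beyond the summed counts of the other 5 mRNAs without MT-CO1. For the other 5 members no such difference passed the test. MT-ND4, on the same mRNA as MT-ND4L, had -0.10 ± 0.15 (adjusted p = 0.536). The MT-ND4L value thus describes counts over its own stretch and does not show a separate fall of an mRNA. The cause of the difference was not tested.

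**Figure D3:**
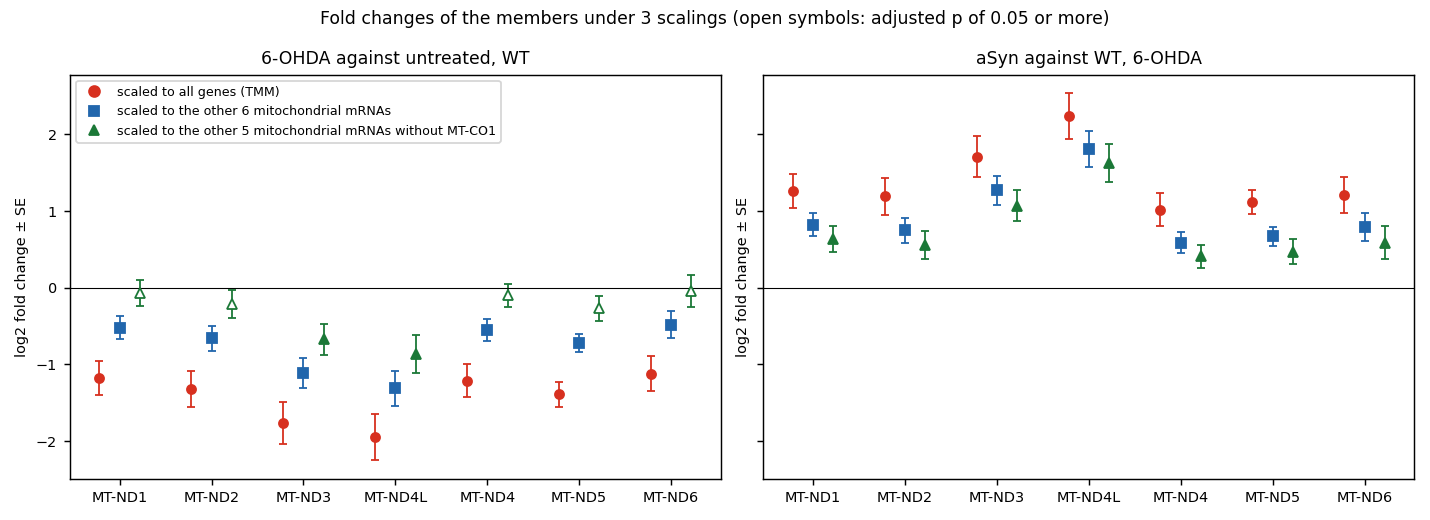
Log2 fold change with its SE (vertical axis) of each member under 3 scalings, for 6-OHDA in WT cells on the left and aSyn against WT cells with 6-OHDA on the right, with open symbols for an adjusted p of 0.05 or more. On the left, 5 of the 7 green triangles (the sum without MT-CO1) are open and lie between -0.27 and -0.04, and on the right all 7 are filled and lie between 0.41 and 1.63.

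In aSyn cells the same treatment gave a smaller change. Of the 7 members 1 was called lower, MT-ND5, where 24.2% of all tested genes were lower and 22.9% higher. Members with an unadjusted p under 0.05 numbered 3, and DESeq2 called 2, MT-ND5 and MT-ND2. The share of all genes called by DESeq2 is not reported here. The aSyn 6-OHDA libraries all ran on lane 2 and the untreated aSyn libraries on lane 1, so lane and treatment cannot be told apart. Markers moved with the treatment here too. Of the neuronal markers MAP2, DCX, STMN2, RBFOX3 and NEFM were lower in aSyn 6-OHDA than in untreated aSyn libraries without overlap, and TUBB3 was higher. The dopaminergic markers summed to 109 to 138 CPM in aSyn 6-OHDA and 397 to 507 CPM in untreated aSyn libraries, and those of progenitors and cycling cells to 17.8 to 33.2 CPM in aSyn 6-OHDA and 39.2 to 81.4 CPM in untreated aSyn libraries. TH, DDC and EN1 were lower without overlap, and NR4A2 was higher (means of 16.8 CPM in aSyn 6-OHDA and 9.28 CPM in untreated aSyn libraries). Of the progenitor and cycling markers only MKI67 was lower without overlap. The oligodendrocyte markers summed to 19.7 to 34.6 CPM in aSyn 6-OHDA and 75.7 to 108 CPM in untreated aSyn libraries, with MBP and OLIG1 lower and SOX10 higher. The sums of the astrocyte, blood and microglia, and fibroblast and epithelial markers overlapped. Within these lists PTPRC, DCN and CDH1 were higher and COL1A1 lower without overlap. The part of these markers was not tested.

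MT-ND5 had 405, 394, 289 and 469 CPM in aSyn 6-OHDA replicates 1 to 4, against 581, 586, 437 and 611 CPM in untreated aSyn replicates 1 to 4. Only the highest treated and the lowest untreated library overlapped. Its log2 change was -0.50 ± 0.15 (adjusted p = 0.0097). Scaled to the other 6 mRNAs it was not called (-0.14, adjusted p = 0.362). Scaled to the other 5 without MT-CO1 its change had the opposite sign (0.17, adjusted p = 0.364). The call was lost with total counts as library size (-0.22, adjusted p = 0.21) and without the 6 libraries of under 4 M counts (-0.35, adjusted p = 0.0929).

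MT-ND2 had 269, 204, 157 and 273 CPM in aSyn 6-OHDA libraries, against 370, 328, 218 and 398 CPM in untreated aSyn libraries, a change of -0.53 ± 0.23 (adjusted p = 0.0574). MT-ND4 had 699, 698, 497 and 737 CPM with 6-OHDA, against 941, 991, 728 and 1026 CPM untreated (-0.49 ± 0.21, adjusted p = 0.0612). In MT-ND4 the highest treated library lay just above the lowest untreated one, and in MT-ND2 replicates 1 and 4 with 6-OHDA lay above untreated replicate 3. In share of the 13 mRNAs 1 of the 7 members did not overlap, MT-ND4. It took 6.59 to 7.21% in aSyn 6-OHDA and 7.26 to 7.66% in untreated aSyn libraries. The share of all genes without overlap on this scale is not reported here. MT-ND1 (-0.32 ± 0.21, adjusted p = 0.217), MT-ND3 (-0.31 ± 0.23, adjusted p = 0.283) and MT-ND6 (-0.32 ± 0.20, adjusted p = 0.204) had 95% intervals that included 0.

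MT-ND4L had 44.7, 32.7, 18.1 and 37.7 CPM in aSyn 6-OHDA libraries, against 36, 38.8, 21 and 38.1 CPM in untreated aSyn libraries. Its change was 0.01 ± 0.24 (adjusted p = 0.969), with a 95% interval of -0.50 to 0.53. Per 100 MT-ND4 counts, the aSyn 6-OHDA libraries held 6.39, 4.68, 3.64 and 5.12 counts of MT-ND4L and the untreated aSyn libraries 3.83, 3.92, 2.89 and 3.72. Of the 4 treated libraries 3 thus lay above every untreated one. Scaled to the other 6 mRNAs, no member was called in aSyn cells (-0.16 to 0.37), where 35.1% of all genes were called higher. Scaled to the other 5 without MT-CO1, MT-ND4L was higher with 6-OHDA in aSyn cells (0.68, adjusted p = 0.0116), where 51.8% of all genes were. Without aSyn 6-OHDA replicate 4, 0 members were called with the 6 mRNAs as scale and 2 with the 5, MT-ND4L (0.74, adjusted p = 0.0101) and MT-ND1 (0.42, adjusted p = 0.046). The shares of all genes in these runs are not reported here.

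Of the other 6 mitochondrial mRNAs, 4 were called lower in aSyn cells, MT-CO2 (-0.76 ± 0.21), MT-ATP6 (-0.73 ± 0.21), MT-CO3 (-0.67 ± 0.18) and MT-CYB (-0.58 ± 0.14). The median was -0.62 over these 6, -0.32 over the members and 0.048 over all tested genes. The members took 19.4, 18.2, 16.7 and 19.7% of the counts of the 13 mRNAs in aSyn 6-OHDA libraries, against 20.6, 18.9, 18 and 20% in untreated aSyn libraries, with overlap. Without aSyn 6-OHDA replicate 4, which stood apart on the first component, 2 members were called lower, MT-ND5 and MT-ND2 (-0.63, adjusted p = 0.0376), and 4 of the other 6 mRNAs. Over all genes 27% were called lower and 24.8% higher without that library. The count of members called was 3 without untreated aSyn replicate 3 and without rutin replicate 2, and 2 without quercetin replicate 1 and without rutin replicate 3. For these runs the shares of all genes are not reported here.

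**Figure D4:**
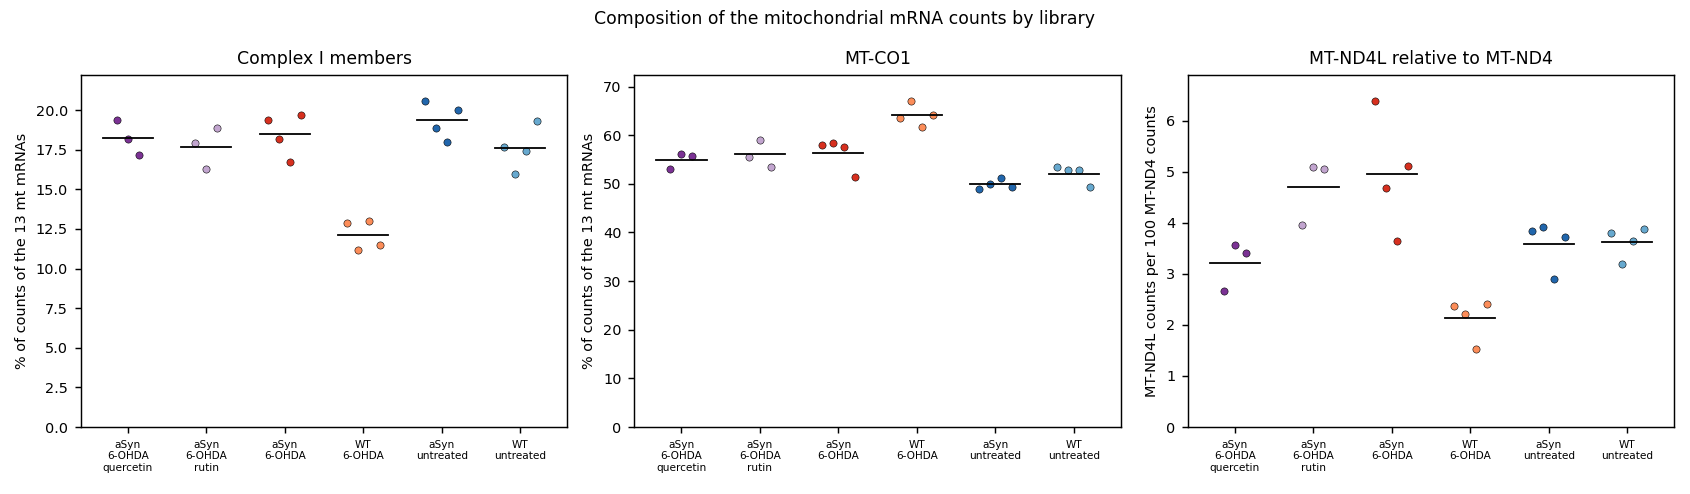
Share of the members (left) and of MT-CO1 (middle) in the counts of the 13 mitochondrial mRNAs, in percent, and MT-ND4L counts per 100 MT-ND4 counts (right), with points for libraries and black bars for group means. WT 6-OHDA libraries are lowest in the left panel (11.2 to 13%) and the right panel (1.53 to 2.41) and highest in the middle panel (61.7 to 67.1%), with no overlap with another group.

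With 6-OHDA in both genotypes, all 7 members were higher in aSyn than in WT cells, and the groups did not overlap for any of them. Over all tested genes 14.4% were called higher and 12.9% lower, and 12.8% were higher without overlap. MT-ND4L had 33.3 ± 11.3 CPM in aSyn 6-OHDA and 6.72 ± 1.54 CPM in WT 6-OHDA libraries, a log2 change of 2.24 ± 0.30 (adjusted p = 5.1e-05). MT-ND3 had 55.3 ± 15.6 CPM in aSyn 6-OHDA and 17.1 ± 6.74 CPM in WT 6-OHDA libraries (1.71 ± 0.27, adjusted p = 1.54e-04). For MT-ND4L the lowest aSyn library was at 18.1 CPM and the highest WT library at 8.59 CPM.

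The other 5 members were higher by 1.02 to 1.26. MT-ND1 averaged 308 ± 65.2 CPM in aSyn 6-OHDA and 128 ± 28.4 CPM in WT 6-OHDA libraries (1.26 ± 0.22, adjusted p = 2.97e-04). MT-ND4 averaged 658 ± 109 CPM in aSyn 6-OHDA and 324 ± 90 CPM in WT 6-OHDA libraries (1.02 ± 0.21, adjusted p = 0.00131). MT-ND5 stood at 389 ± 74.8 CPM in aSyn 6-OHDA and 180 ± 32.5 CPM in WT 6-OHDA libraries (1.12 ± 0.16, adjusted p = 7.59e-05). Errors are SD over 4 libraries each. MT-ND2 (1.19 ± 0.24) and MT-ND6 (1.21 ± 0.23) had adjusted p of 9.15e-04 and 5.38e-04.

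The other 6 mitochondrial mRNAs were called higher as well, from MT-CO1 (0.36 ± 0.12) to MT-ATP8 (1.42 ± 0.30), and 4 of the 6 without aSyn 6-OHDA replicate 4. Scaled to those 6, the members were still higher by 0.59 to 1.81 and all 7 were called, where 0.59% of all genes were. Scaled to the 5 without MT-CO1 they were higher by 0.41 to 1.63, again with 7 of 7 called, where 0.319% of all genes were. The members held 0.137 to 0.212% of all counts in aSyn 6-OHDA libraries and 0.0611 to 0.102% in WT 6-OHDA libraries. Without aSyn 6-OHDA replicate 4 all 7 stayed called, under both of these scalings as well, and without the 6 libraries of under 4 M counts 5 did, with 1 WT 6-OHDA library left and assumed to vary like the other groups, the exceptions being MT-ND2 (1.25, adjusted p = 0.0561) and MT-ND4 (1.02, adjusted p = 0.0654). Without aSyn 6-OHDA replicate 4 and with TMM scaling, 11.5% of all genes were called higher and 13.2% lower. The shares under the other scalings without that library are not reported here. Here too lane and genotype cannot be told apart, since the 2 groups ran on different lanes. The summed neuronal markers of the 2 groups overlapped, while MAP2, DCX and STMN2 were higher and NEFM lower in aSyn cells without overlap. The dopaminergic markers summed to 109 to 138 CPM in aSyn 6-OHDA and 192 to 206 CPM in WT 6-OHDA libraries, with TH and NR4A2 lower and SLC18A2 higher. SLC18A2 was low, with means of 1.66 CPM in aSyn 6-OHDA and 0.723 CPM in WT 6-OHDA libraries. In WT 6-OHDA libraries 3 counts were worth up to 1.49 CPM. The part of these markers in the difference was not tested.

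Without 6-OHDA, 0 of 7 members were called between the genotypes by edgeR or by DESeq2, 0 had an unadjusted p under 0.05, and 0.651% of all genes were called. Changes in aSyn cells were 0.23 (MT-ND5) to 0.41 (MT-ND2 and MT-ND6), with adjusted p of 0.572 to 0.82. MT-ND6 had 118.3, 74.3, 62.1 and 101.3 CPM in untreated aSyn libraries and 70.5, 60.7, 62.2 and 73.1 CPM in untreated WT libraries, and its 95% interval was -0.02 to 0.84. All 7 estimates lay above 0, and the groups overlapped for all 7, where 5.34% of all genes did not overlap. Both groups ran on lane 1.

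The interaction tested whether the change with 6-OHDA differed between aSyn and WT cells, as the change in aSyn cells minus that in WT cells. Of the 7 members 4 were called, all in the direction of a smaller fall in aSyn cells, where 11.2% of all genes were called higher and 10.5% lower. The differences were 1.97 ± 0.39 for MT-ND4L (adjusted p = 0.00164), 1.45 ± 0.36 for MT-ND3 (adjusted p = 0.00633), 0.89 ± 0.22 for MT-ND5 (adjusted p = 0.00633) and 0.86 ± 0.30 for MT-ND1 (adjusted p = 0.0432). MT-ND1 lost this call in 15 of 34 alternatives, 11 of which left out a single library, with adjusted p of 0.0514 to 0.247. MT-ND6 (0.80 ± 0.30, adjusted p = 0.0629), MT-ND4 (0.72 ± 0.30, adjusted p = 0.0886) and MT-ND2 (0.79 ± 0.33, adjusted p = 0.091) were not called, although all 7 had an unadjusted p under 0.05. The other 6 mitochondrial mRNAs had values of 0.25 to 0.78 that did not pass the test in edgeR (adjusted p of 0.111 to 0.507), and 1 of them, MT-CO3, had an unadjusted p under 0.05. DESeq2 called the 4 members and MT-ND6, and its share of all genes is not reported here.

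Scaled to the other 6 mRNAs, the interaction was called for MT-ND4L, MT-ND3 and MT-ND5, where 0.325% of all genes were higher. Without MT-CO1 in that sum it was called for MT-ND4L (1.55 ± 0.34, adjusted p = 0.00817) and MT-ND3 (1.02 ± 0.27, adjusted p = 0.0207), where 0.181% of all genes were. Without aSyn 6-OHDA replicate 4 MT-ND5 lost its call with the 6 mRNAs as scale (0.52, adjusted p = 0.0728) and MT-ND3 with the 5 (0.96, adjusted p = 0.0515). With TMM scaling and without that library the count of members called was 3, where 9.52% of all genes were higher and 12% lower. MT-ND1 then stood at 0.81 (adjusted p = 0.0743). The count was 7 without aSyn 6-OHDA replicate 3 or rutin replicate 2. The shares of all genes in these 2 runs are not reported here, so a wider shift in calls cannot be told from one of the members. Lane differed between treated and untreated cells in aSyn but not in WT cells, so lane and the interaction cannot be told apart.

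Quercetin, a flavonol, and rutin, its glycoside carrying a disaccharide, were given to aSyn cells with 6-OHDA, and these 3 groups ran on lane 2. No member was called with either compound, or between the compounds, by edgeR or by DESeq2, and 0 had an unadjusted p under 0.05 in edgeR. The same count of 0 held without aSyn 6-OHDA replicate 4. Over all genes 2.53% were called with quercetin, 0% with rutin and 0.00602% between the compounds, and with quercetin 0.128% were called higher and 0.383% lower without that library.

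With quercetin MT-ND4 had 1117, 717 and 748 CPM, against 699, 698, 497 and 737 CPM with 6-OHDA alone. Its log2 change was 0.39 ± 0.22 (95% interval -0.09 to 0.86, adjusted p = 0.413), and 1 quercetin library, replicate 1, lay far above the rest. The change was 0.15 without that library. As a share of the 13 mitochondrial mRNAs, 1 of the 7 members did not overlap with quercetin, where 13.2% of all genes did not when set against the same 13. MT-ND4 was that member, with 8.66, 7.47 and 7.53% with quercetin and 7.11, 7.14, 6.59 and 7.21% with 6-OHDA alone. A count of 1 of 7 is near the share of all genes, so it is no result about the members. MT-ND4L had 29.7, 25.5 and 25.5 CPM with quercetin and 44.7, 32.7, 18.1 and 37.7 CPM with 6-OHDA alone, a change of -0.33 ± 0.26 (95% interval -0.89 to 0.23, adjusted p = 0.584). The other 5 members had changes of -0.16 (MT-ND6) to 0.15 (MT-ND2).

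With rutin MT-ND6 had 45, 41.3 and 72.1 CPM, against 77.8, 72.1, 48.9 and 83 CPM with 6-OHDA alone. Its change of -0.47 ± 0.23 had a 95% interval of -0.96 to 0.02 (adjusted p = 0.483). It was -0.73 without rutin replicate 3, -0.31 without rutin replicate 2 and -0.89 without the 6 libraries of under 4 M counts. In share of the 13 mRNAs 1 of the 7 members did not overlap, where 2.15% of all genes did not. MT-ND6 was that member and took 0.462, 0.613 and 0.63% with rutin and 0.791, 0.738, 0.648 and 0.812% with 6-OHDA alone, so all rutin libraries were lower. MT-ND1 to MT-ND5 and MT-ND4L had changes of -0.20 (MT-ND1) to 0.02 (MT-ND4) with rutin.

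Between the 2 compounds 1 pair of groups was compared, with no dose given in the sources used. Quercetin minus rutin was 0.37 ± 0.24 for MT-ND4 (95% interval -0.15 to 0.88), 0.31 ± 0.24 for MT-ND6 (-0.21 to 0.82) and -0.17 ± 0.29 for MT-ND4L (-0.78 to 0.43). The other 4 had differences of 0.03 to 0.22, and adjusted p of all 7 were 0.696 to 0.997. In share of the 13 mRNAs 1 of the 7 members did not overlap between the compounds, where 11.6% of all genes did not. That member was MT-ND4L, with 0.23, 0.266 and 0.256% with quercetin and 0.295, 0.311 and 0.385% with rutin. Here too 1 of 7 is near the share of all genes and is no result about the members. The intervals of the 7 members reach from -0.78 to 0.88 on the log2 scale, so they do not show that the compounds act alike.

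Complex I also needs subunits from nuclear genes, which were read from the same fit. The lists' counts stand beside the shares of all genes given above, 26.2% lower and 25.8% higher with 6-OHDA in WT cells, 24.2% lower and 22.9% higher in aSyn cells, and 12.9% lower and 14.4% higher between aSyn and WT cells with 6-OHDA. Without aSyn 6-OHDA replicate 4 these shares were 27% lower and 24.8% higher in aSyn cells, and 13.2% lower and 11.5% higher between the genotypes. A list's count near such a share is no result about the list. Of the 7 nuclear core subunits, 3 rose and 3 fell in WT cells with 6-OHDA, and their median change was 0.36. NDUFS8, an iron-sulfur subunit, had 47.4 ± 6.33 CPM in WT 6-OHDA and 24.6 ± 1.65 CPM in untreated WT libraries (0.94 ± 0.13, adjusted p = 4.36e-06). The nuclear core thus moved in both directions.

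Of 26 accessory subunits tested 10 fell and 1 rose in WT cells, with NDUFA9 at -0.66 ± 0.11, NDUFS5 at -0.85 ± 0.15 and NDUFA7 at -0.76 ± 0.14, and the median was -0.26. Of 19 assembly factors 6 rose, among them NDUFAF3 (0.63 ± 0.09) and ECSIT (0.89 ± 0.16), and 3 fell, among them NDUFAF5 (-0.70 ± 0.15). In aSyn cells with 6-OHDA, 2 core subunits rose and 2 fell, including NDUFV2 (0.95 ± 0.14) and NDUFV1 (-0.65 ± 0.08), which both bind cofactors of NADH oxidation. Among accessory subunits 2 rose and 12 fell there, with NDUFA11 at -1.02 ± 0.12 and NDUFB11 at -0.87 ± 0.14, both in the membrane arm, and among assembly factors 2 rose and 4 fell. Between aSyn and WT cells with 6-OHDA, 1 core subunit was higher and 2 lower, 0 accessory subunits higher and 2 lower, and 3 assembly factors higher and 3 lower. Without aSyn 6-OHDA replicate 4, 2 core subunits rose and 3 fell in aSyn cells, 3 accessory subunits rose and 14 fell, and 4 assembly factors rose and 4 fell. Between the genotypes that left 1 core subunit higher and 2 lower, 0 accessory subunits higher and 4 lower, and 3 assembly factors higher and 3 lower.

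Genes for mitochondrial transcription and RNA processing were read in the same way. Of 29 tested 12 fell and 4 rose in WT cells with 6-OHDA, with a median of -0.28. MTPAP, the mitochondrial poly(A) polymerase, had 59.3 ± 5.63 CPM in WT 6-OHDA and 101.7 ± 6.48 CPM in untreated WT libraries (-0.78 ± 0.10, adjusted p = 5.94e-07). FASTK, whose mitochondrial form is needed for MT-ND6 mRNA, rose (0.84 ± 0.12), as did its relative TBRG4 (0.74 ± 0.10), while GRSF1, an RNA granule protein, fell (-0.44 ± 0.10). SLIRP, a stabiliser of mitochondrial mRNAs, fell (-0.49 ± 0.13), and its partner LRPPRC had -0.10 ± 0.12 (adjusted p = 0.533). The mitochondrial RNA polymerase POLRMT (0.09 ± 0.15, adjusted p = 0.638) and the transcription factor TFAM (-0.06 ± 0.17, adjusted p = 0.79) did not pass the test.

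In aSyn cells with 6-OHDA 7 of the 29 fell and 2 rose, among them HSD17B10, a subunit of mitochondrial RNase P (44.2 ± 9.47 CPM in aSyn 6-OHDA and 89.8 ± 9.07 CPM in untreated aSyn libraries), LRPPRC at -0.43 ± 0.12 and TFAM at -0.46 ± 0.16. The 7 that fell are close to the share of all genes, 24.2%. With 6-OHDA in both genotypes, 7 were higher and 3 lower in aSyn than in WT cells. FASTKD2, a mitochondrial RNA-binding protein, had 46.8 ± 5.5 CPM in aSyn 6-OHDA and 24.2 ± 5.05 CPM in WT 6-OHDA libraries (0.94 ± 0.16, adjusted p = 2.3e-04), and MTPAP was higher by 0.55 ± 0.10. The interaction was called for 6 higher, among them FASTKD2 (1.07 ± 0.21) and MTPAP (0.69 ± 0.13), and for 4 lower, among them TBRG4 (-0.64 ± 0.14), where 11.2% of all genes were higher and 10.5% lower. Without aSyn 6-OHDA replicate 4, 8 fell and 3 rose in aSyn cells, 6 were higher and 4 lower between the genotypes, and the interaction was called for 4 higher and 4 lower. Over all genes the interaction was then called higher for 9.52% and lower for 12%. With quercetin 1 assembly factor was lower, FOXRED1 (-0.33 ± 0.08, adjusted p = 0.0283), a call that was lost without that library (-0.30 ± 0.08, adjusted p = 0.0919). In the core, accessory, assembly and RNA lists, edgeR called 0 genes between untreated aSyn and WT cells (0, 2, 3 and 1 at an unadjusted p under 0.05), with rutin (0, 3, 1 and 1) or between the compounds (2, 1, 1 and 1).

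**Figure D5:**
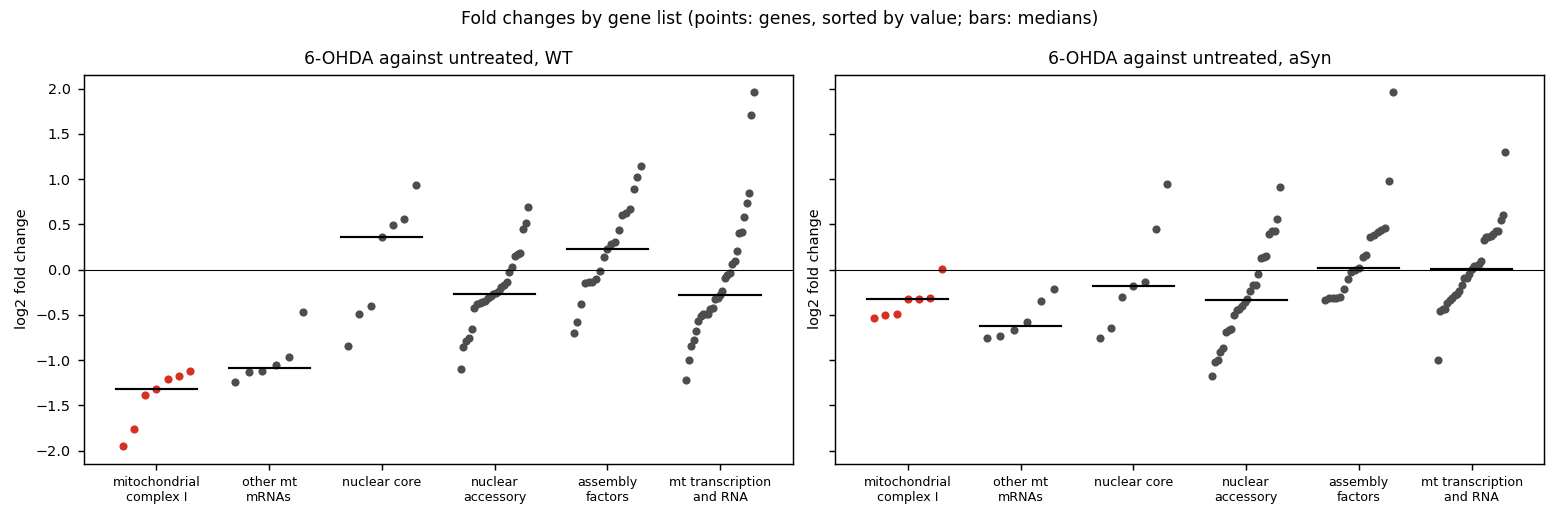
Log2 fold change with 6-OHDA (vertical axis) of the tested genes of 6 lists in WT cells (left) and aSyn cells (right), with points for genes and bars for medians. The members' median is -0.32 in aSyn cells and -1.32 in WT cells, and the nuclear lists spread on both sides of 0.

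Across the 22 libraries the members moved together. Pearson's r of log2 CPM was 0.891 (MT-ND4L with MT-ND6) to 0.980 (MT-ND1 with MT-ND2) over the 21 pairs, given as a description, since the points share libraries and groups. Among all other tested genes outside the mitochondrial genome, the 5 whose log2 CPM was most like the mean of the members were PCF11 (r = 0.864), a cleavage factor of nuclear mRNA 3' ends, ZNF266 (0.863), SERF1A (0.862), AC010615.1 (0.858) and ZNF658B (0.849). The 5 were picked for their likeness over these libraries, which favours shared low groups. Like the members, all 5 had their lowest group mean in WT 6-OHDA cells, so this is no separate result. PCF11 averaged 113 CPM there and 150 to 157 CPM in the other 5 groups, and SERF1A averaged 7.73 CPM there and 17 to 25.7 CPM elsewhere. SERF1A has a near-identical copy in the genome, so its level is uncertain.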

How the data were processed

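The authors deposited whole-number estimated counts per gene for 22 libraries of polyadenylated RNA. The submitters' processing notes name Trimmomatic 0.38, kallisto 0.46.2 and GRCh38, with no role or order. The annotation release and the use of strand are not given in the sources used. Estimated counts split reads between near-identical genes by a model, which bears on members with nuclear copies. All 22 columns matched a sample, with 0 columns of no sample. The total was 1.87 to 20.67 M counts per library, and 3 counts, the limit that a count of 0 allows, were worth 0.168 to 1.49 CPM. Intervals and floors cover counting error only. No replicate pair agreed within counting noise.

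The 6 groups were fitted together with edgeR 4.0.16 in R 4.3.3 (TMM scaling, quasi-likelihood F test), after filterByExpr with a minimum count of 10 kept 16601 of 34679 genes. P-values were adjusted by Benjamini-Hochberg over all tested genes, with a threshold of 0.05, and 95% intervals used the residual degrees of freedom. All 8 comparisons were run again with DESeq2 1.42.0, other scalings, no filter, members with their nuclear copies added, other sets of libraries and each library left out. Log2 CPM used a prior count of 2. The scripts were tested on simulated data.

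The members, the lists, the added scaling without MT-CO1 and the runs of the lists and scalings without aSyn 6-OHDA replicate 4 were chosen with earlier results of these data known. The text names all 7 members, up to 3 genes per list and comparison with the smallest adjusted p (some of these are not reported here), 6 set RNA genes (TFAM, POLRMT, LRPPRC, SLIRP, FASTK and GRSF1), and the 5 nuclear genes of at least 5 CPM most like the members. Of 95 list genes 87 were tested, 1 of them found under an older symbol, and MT-RNR1, MT-RNR2, NDUFA1, NDUFA8, TFB2M and FASTKD5 are not analysed here. Positions and sequences are from GENCODE 29 (GRCh38), whose gene identifiers match those of the table for the 13 mitochondrial mRNAs.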

Additional observations from a re-analysis of the deposited data

Results flagged for a closer look

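In aSyn cells with 6-OHDA, replicate 3 was far below its group in MT-ND4, with 497 CPM where the next library had 698 CPM, and in the MT-ND4 share of the 13 mitochondrial mRNAs, with 6.59% where the next had 7.11%. In untreated aSyn cells, replicate 3 was far below its group in MT-ND4L, with 21 CPM where the next library had 36 CPM, and in the MT-ND4L share, with 0.21% where the next had 0.282%. MT-CO1 took a low share of the 13 mRNAs in replicate 4 of 2 groups, 51.3% in aSyn 6-OHDA cells where the next library had 57.5%, and 49.3% in untreated WT cells where the next had 52.8%. Of 76 groups of values examined for a library far from the others 6 had one, and chance gives about 1 in 20.

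The change with 6-OHDA differed between aSyn and WT cells, by the interaction in the quasi-likelihood test of edgeR (Benjamini-Hochberg adjusted), for MT-ND4L by 1.97 (adjusted p = 0.00164), for MT-ND3 by 1.45 (adjusted p = 0.00633), for MT-ND5 by 0.89 (adjusted p = 0.00633) and for MT-ND1 by 0.86 (adjusted p = 0.0432), each on the log2 scale. MT-ND1 lost this call in 15 of 34 alternatives, with adjusted p of 0.0514 to 0.247. Lane and genotype cannot be told apart in the treated cells.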

How the results depend on the processing

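Over 34 alternatives a result, the 7 members were called lower with 6-OHDA in WT cells in 33, the exception being scaling to the other 5 mitochondrial mRNAs without MT-CO1 (2 called). Between aSyn and WT cells with 6-OHDA 7 were called except without the 6 libraries of under 4 M counts (5). The count with 6-OHDA in aSyn cells (1 as reported) was 0 with total counts, with scaling to the other 6 mRNAs and without the 6 libraries, 2 in DESeq2 and with only the groups compared, 3 with no filter, and 1 to 3 with a library left out. The interaction (4 as reported) was called for 2 with scaling to the 5 mRNAs, 7 with only the groups compared, and 3 to 7 with a library left out. MT-ND1 kept its interaction call in 19 of 34 alternatives, with values of 0.43 to 1.04, and lost it without untreated WT replicate 1, 3 or 4, untreated aSyn replicate 1, 2 or 3, WT 6-OHDA replicate 2 or 4, or aSyn 6-OHDA replicate 1, 2 or 4. Total counts shifted the median of all genes to 0.328 in aSyn cells and 0.345 in WT cells with 6-OHDA, where TMM gave 0.048 and 0.071. The cause of these changes was not tested. Apart from those given above, the shares of all genes called in these alternatives are not reported here.

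Samples of the same replicate number did not deviate together (correlations -0.138 to 0.063 over 25 pairs). With the replicate number as a block, 3 members were called lower with 6-OHDA in aSyn cells, and the other counts stayed within 1.5 times. The shares of all genes under the block are not reported here.

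Directions changed sign only in values that were not called, apart from MT-ND5 in aSyn cells with 6-OHDA. In that comparison MT-ND1, MT-ND3 and MT-ND6 became 0.05, 0.06 and 0.03 with scaling to the other 6 mRNAs. With the 5, MT-ND1, MT-ND2, MT-ND3, MT-ND4, MT-ND5 and MT-ND6 became 0.36, 0.15, 0.35, 0.20, 0.17 and 0.34. MT-ND4L became -0.01 with no filter, -0.03 under the block, -0.16 without the 2 libraries with 4 barcodes, and -0.16 to 0.23 with a library left out. For quercetin, MT-ND1, MT-ND2 and MT-ND5 became -0.17, -0.06 and -0.13 (other 6), -0.27, -0.15 and -0.21 (other 5) and -0.13, -0.09 and -0.07 (without the 6 libraries), and MT-ND3 became 0.03 (total counts) and 0.05 (block). With a library left out these 4 spanned -0.13 to 0.13 (MT-ND1), -0.12 to 0.28 (MT-ND2), -0.08 to 0.18 (MT-ND5) and -0.2 to 0.16 (MT-ND3), and the others 0.15 to 0.5 (MT-ND4), -0.53 to -0.16 (MT-ND4L) and -0.3 to -0.06 (MT-ND6). For rutin, MT-ND2 became 0.01 (total counts) and 0.03 (block), MT-ND3 0.02 (block), and MT-ND4 -0.00 (other 6), -0.06 (other 5) and -0.33 (without the 6 libraries). With a library left out the rutin values spanned -0.5 to 0.08 (MT-ND1), -0.3 to 0.21 (MT-ND2), -0.3 to 0.17 (MT-ND3), -0.22 to 0.28 (MT-ND4), -0.45 to 0.08 (MT-ND4L), -0.24 to 0.06 (MT-ND5) and -0.73 to -0.31 (MT-ND6). Between quercetin and rutin, MT-ND2, MT-ND3 and MT-ND5 became -0.01, -0.18 and -0.05 (other 6) and -0.05, -0.22 and -0.10 (other 5), and MT-ND4L 0.12 (without the 6 libraries). With a library left out they spanned -0.06 to 0.52 (MT-ND1), -0.07 to 0.45 (MT-ND2), -0.23 to 0.24 (MT-ND3), 0.1 to 0.6 (MT-ND4), -0.42 to 0.12 (MT-ND4L), 0.01 to 0.31 (MT-ND5) and 0.14 to 0.56 (MT-ND6). The share of all counts without MT-RNR1 and MT-RNR2 was not run, since they are not analysed here. Depth limits MT-ND4L and MT-ND3 most, with 14 and 26 counts in the shallowest WT 6-OHDA library.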
